A study of Mus musculus with 3 samples.

Results

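Smooth muscle contractile and adhesion-plaque genes were examined in mouse aortas labelled Plk1(+/-) against a wild-type pool. The set held 35 genes, taken by symbol from a written list of the contractile apparatus and its anchorage, of 19505 named genes on the array, and 67 of its 41174 probes measured them. Of these probes, 58 had no saturated spot and stood well above background, 8 had a spot at the scanner's limit and 1, for Flna, was dim. The 58 unsaturated probes covered 31 of the 35 genes, while Cnn1, Fhl1, Myl6 and Myl9 had only saturated probes.

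Each of 3 arrays, all on 1 slide, held total RNA of 1 aorta labelled Plk1(+/-) in Cy5, and in Cy3 the pooled RNA of 3 wild-type aortas. Both genotypes were of the 129/CD1 strain and aged 3 to 5 months. Plk1 encodes polo-like kinase 1, which drives mitosis, and Plk1(+/-) denotes animals with 1 altered copy, though the labels do not give the altered stretch. No array had the dyes exchanged, so dye and genotype cannot be told apart, and 1 shared pool stood against all 3 samples. The growth protocol in the labels concerns embryonic stem cells, whereas the tissue label is aorta. The defining smooth muscle genes Acta2, Myh11, Tagln, Cnn1, Smtn, Lmod1 and Myocd stood well above background in each dye and on each array. The Plk1 probe read -0.06, -0.08 and 0.42 in samples 1, 2 and 3 (limma adjusted p = 0.705), so no lower Plk1 signal was seen, and if the altered stretch lies outside the probe this checks nothing. All values below are log2 ratios of the Plk1(+/-) aorta over the pool unless stated, so negative values mean less signal in the Plk1(+/-) aorta.

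Smooth muscle cells shorten when myosin pulls on actin filaments, whose sides carry tropomyosin, calponin and caldesmon. The filaments end in dense bodies in the cytoplasm and in adhesion plaques at the membrane, where talin, vinculin and integrin-linked kinase couple them to integrins and the matrix. Many genes of this apparatus are activated by serum response factor with its coactivator myocardin, through a DNA element called the CArG box, a run of A and T bases between CC and GG.

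Promoter windows in RefSeq (GRCm38.p6), from 250 bases before to 50 after a gene's start, were given for 30 of the 35 genes. A CArG box on either strand was found in windows of 7 of the 30, which were Cnn2, Fhl1, Fhl2, Myl6, Myl9, Srf and Vcl. By window, 8 of 37 (21.6%) held one, against 535 of 32851 windows of all genes (1.63%). These 5 windows show the element in capitals in a light chain gene, a calponin gene, 2 anchorage genes and the gene of the factor itself. The start lies 50 bases from the 3′ end of each window.

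Myl9, chr2:156775214-156775513, plus strand: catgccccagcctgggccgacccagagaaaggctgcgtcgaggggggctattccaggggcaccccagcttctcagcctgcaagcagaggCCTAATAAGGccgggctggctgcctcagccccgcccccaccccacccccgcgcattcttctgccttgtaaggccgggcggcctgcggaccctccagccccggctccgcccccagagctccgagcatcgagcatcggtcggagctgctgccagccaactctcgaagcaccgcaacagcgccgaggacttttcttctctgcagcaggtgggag
Cnn2, chr10:79988350-79988649, plus strand: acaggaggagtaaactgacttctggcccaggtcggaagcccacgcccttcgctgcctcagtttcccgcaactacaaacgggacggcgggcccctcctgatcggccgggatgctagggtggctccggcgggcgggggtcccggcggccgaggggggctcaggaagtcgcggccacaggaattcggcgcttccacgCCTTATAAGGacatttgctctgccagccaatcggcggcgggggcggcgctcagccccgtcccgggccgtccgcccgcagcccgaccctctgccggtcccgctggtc
Vcl, chr14:20929148-20929447, plus strand: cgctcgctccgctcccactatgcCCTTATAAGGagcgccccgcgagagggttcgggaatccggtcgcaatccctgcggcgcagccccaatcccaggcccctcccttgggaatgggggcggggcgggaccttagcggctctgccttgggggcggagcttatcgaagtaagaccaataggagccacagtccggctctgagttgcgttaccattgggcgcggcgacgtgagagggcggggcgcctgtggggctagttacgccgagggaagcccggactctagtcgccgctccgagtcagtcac
Fhl2, chr1:43163912-43164211, minus strand: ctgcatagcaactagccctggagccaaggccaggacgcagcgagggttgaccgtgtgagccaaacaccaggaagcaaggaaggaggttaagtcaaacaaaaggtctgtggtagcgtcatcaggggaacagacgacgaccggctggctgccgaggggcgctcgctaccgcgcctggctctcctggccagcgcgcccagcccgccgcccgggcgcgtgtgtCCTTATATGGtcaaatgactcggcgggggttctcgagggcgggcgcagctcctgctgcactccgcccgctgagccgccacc
Srf, chr17:46556113-46556412, minus strand: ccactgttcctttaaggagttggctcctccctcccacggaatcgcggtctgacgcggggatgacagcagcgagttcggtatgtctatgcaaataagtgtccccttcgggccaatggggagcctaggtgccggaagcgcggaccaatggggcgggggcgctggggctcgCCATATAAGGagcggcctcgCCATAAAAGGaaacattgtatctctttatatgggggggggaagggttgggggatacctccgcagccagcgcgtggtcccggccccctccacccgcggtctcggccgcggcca

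The boxes began 161 bases upstream of the start in Myl9, 56 in Cnn2, 227 in Vcl, 31 in Fhl2, and 82 and 62 in Srf, whose window held a pair. A match is a run of letters, not a shown site. Only the exact form was searched, and only within these windows, so a window without a match does not show that the gene lacks the element. The 4 genes with a box and an unsaturated probe (Cnn2, Fhl2, Srf and Vcl) had mean ratios between -0.72 and -0.14 with a median of -0.41. The 22 unsaturated genes whose windows held none ran from -1.43, for Tpm1 at its brightest probe, to 0.0065, with a median of -0.65. Myh11, Tagln, Actg2, Parva and Myocd had no window given and are in neither group. Windows of Cald1, Fhl1 and Tpm1 held a box with 1 outer base changed, which was not counted. Such boxes lay in 10.0% of member genes with a window, against 8.39% of all genes. The difference between the groups was not tested.

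Across the 31 measured genes, ratios lay below 0 in nearly every case and differed by sample. Their medians were -0.36, -0.95 and -0.61 in samples 1, 2 and 3, while the medians of all unsaturated probes were 0.03, 0.01 and 0.03. Of the 31 genes, 28 were below 0 on all 3 arrays, against 18.7% of all unsaturated probes, and at log2 intensities of 12 or more that share was 21.0%, with 10.2% at an unadjusted p under 0.05 and lower. By these medians sample 1 was nearest to the pool and sample 2 farthest.

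No unsaturated member probe passed the test over all probes. Limma called 0 of the 58 at an adjusted p under 0.05, against 0.0972% of unsaturated probes and 0.662% of all kept probes (0.631% lower, 0.0308% higher). At an unadjusted p under 0.05 with a lower signal were 44 of the 58, against 8.95%. By gene, with the brightest unsaturated probe standing for it, 23 of 31 were at that unadjusted level and lower and 0 were higher, where 8.98% of all unsaturated probes lay. The lowest adjusted p of a member was 0.0636, for Fhl2. Array weights, at 0.64, 2.26 and 0.68 for samples 1, 2 and 3, called 4 of the 58, 1 probe each of Acta2, Cald1, Fhl2 and Pdlim3. Median centring called 7, of which 5 were lower (these genes and Myocd) and Tpm4 and Tln1 were higher. The probes called for Acta2, Cald1, Pdlim3 and Myocd were not their brightest unsaturated ones. Those passed under no alternative (lowest limma adjusted p of 0.0514, 0.0820, 0.0603 and 0.0565). The 3 ratios share the pool, whose own spread the test leaves out. In whole aorta, fewer muscle cells and less RNA per muscle cell cannot be told apart.

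**Figure D1:**
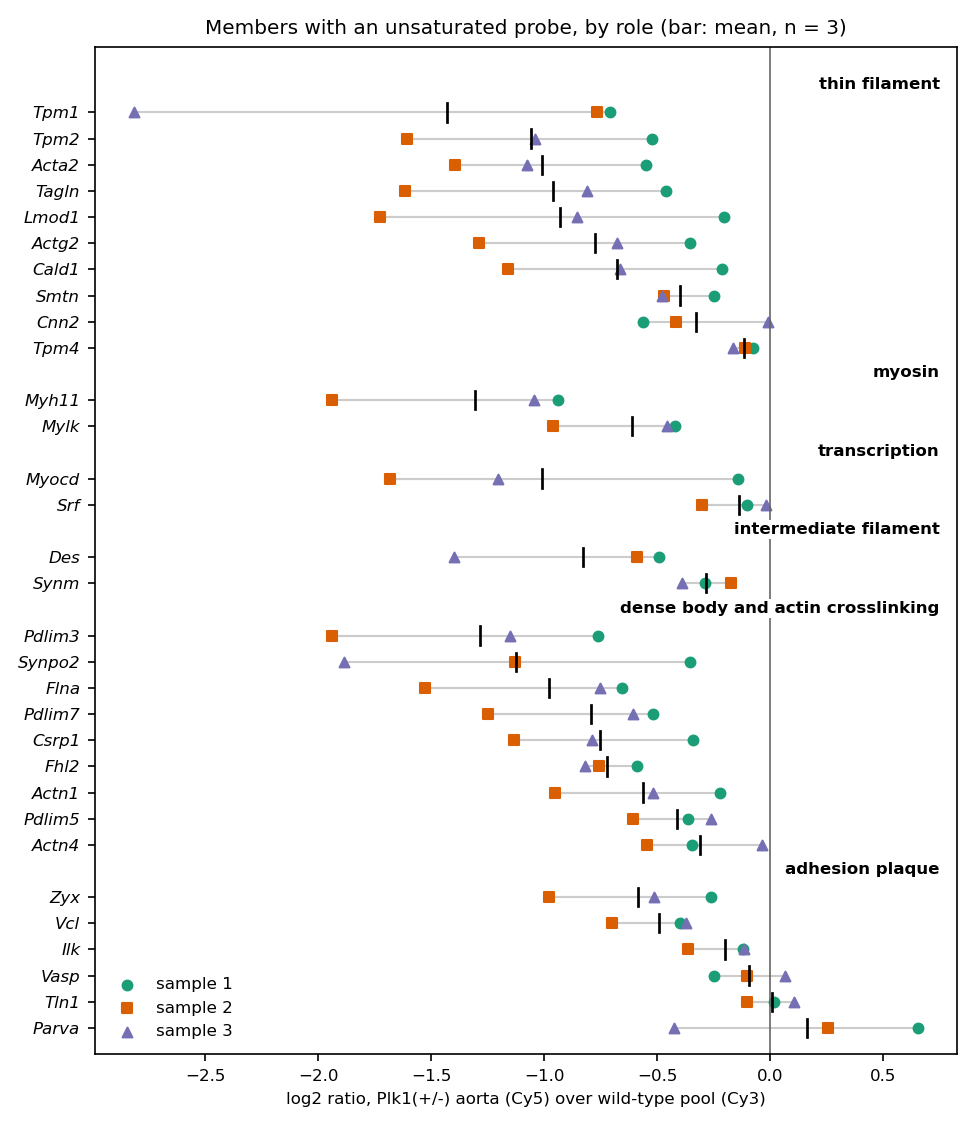
Log2 ratio of the Plk1(+/-) aorta over the wild-type pool (horizontal axis) for the brightest unsaturated probe of each of 31 genes, grouped by role, with a symbol for each sample and a bar at the mean. In 28 of the 31 genes all 3 samples lie left of 0, and sample 2 is the lowest in 21.

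Among the thin filament genes, all 10 measured were below 0 on every array, with medians of -0.41, -1.22 and -0.74 in samples 1, 2 and 3. Acta2, the smooth muscle alpha actin, had normalized log2 signals of 14.29, 13.56 and 13.77 in the Plk1(+/-) aortas, against 14.85, 14.96 and 14.84 for the pool on the same arrays. Each Plk1(+/-) signal lay below each pool reading, but the pool was 1 mixture read on 3 arrays. The Acta2 ratios were -0.55, -1.40 and -1.08, a mean of -1.01 ± 0.43 (SD, n = 3, limma adjusted p = 0.143). All 4 of its unsaturated probes were below 0, with means between -1.04 and -0.66. Actg2, the gamma actin of smooth muscle, read -0.36, -1.29 and -0.68. Tagln, which encodes the actin-binding protein transgelin, read -0.46, -1.62 and -0.81, a mean of -0.96 ± 0.59 (adjusted p = 0.189). Lmod1, a leiomodin that nucleates actin filaments, ran from -0.20 in sample 1 to -1.73 in sample 2, with -0.85 in sample 3.

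The filament's side-binding proteins differed from each other in the size of the ratio. Tpm2, the beta tropomyosin, read -0.52, -1.61 and -1.04, and Cald1, which encodes caldesmon, read -0.22, -1.16 and -0.66. A second, dimmer probe of Cald1 read -0.63, -1.52 and -1.31. Sample 2 was the lowest at each of these probes. Smtn, for smoothelin, read -0.25, -0.47 and -0.48, Cnn2, a calponin found outside smooth muscle too, -0.56, -0.42 and -0.01, and Tpm4, a tropomyosin of many cell types, -0.08, -0.11 and -0.16. Under median centring in place of loess, Cnn2 and Tpm4 turned to 0.12 and 0.38, while the median over all probes was 0.18 there and 0.03 with loess. Tpm4 was then called higher (adjusted p = 0.0248 in limma).

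Tpm1, the alpha tropomyosin gene, depended on the probe. Its brightest probe, which spans 1556 bases of genome and so crosses an exon junction, read -0.71, -0.77 and -2.81, a mean of -1.43 ± 1.20 (limma adjusted p = 0.235). A probe across an upstream junction read -0.67, -0.71 and -2.11. The remaining probe, nearest the 3′ end at chr9:67054531-67054590 in mm7, read -0.38, -1.02 and -0.63. Sample 3 was thus far the lowest at both junction probes, and sample 2 was the lowest at the 3′ probe. Tpm1 is spliced differently in smooth and striated muscle, and the spliced forms that these probes read were not analysed here. The value standing for Tpm1 is that of its brightest probe, which need not read the smooth muscle form. The 3′ probe had a mean of -0.68. The 60-base probes are given here because the ratio turned on which was read. Positions are in mm7, as the scanner files give them, all on the minus strand. Capitals in the upstream Tpm1 probe and in the Tpm2 probe mark the 27 of 33 overlapping bases at which they match (81.8%).

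Tpm1 upstream junction, chr9:67064287-67065357: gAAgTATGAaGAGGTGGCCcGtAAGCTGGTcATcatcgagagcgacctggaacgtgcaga
Tpm2, chr4:43533092-43533242: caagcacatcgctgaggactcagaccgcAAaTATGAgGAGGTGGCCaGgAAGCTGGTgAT
Tpm1 brightest probe, chr9:67059621-67061176: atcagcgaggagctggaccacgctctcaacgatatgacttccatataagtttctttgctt

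The Tpm2 probe shown, its brightest, was lowest in sample 2, unlike the Tpm1 probe it partly matches. Between the probes of Acta2, Actg2 and the other actins, no stretch of 30 or more overlapping bases matched at more than 50% of its bases.

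Both measured genes of the myosin motor read below 0 in each sample. Myh11 encodes the smooth muscle myosin heavy chain. Its log2 signals were 13.76, 12.83 and 13.65 in the Plk1(+/-) aortas, against 14.69, 14.76 and 14.70 in the repeated pool. Its ratios of -0.94, -1.94 and -1.05 gave a mean of -1.31 ± 0.55 (adjusted p = 0.137 in limma), or 2.47-fold lower signal. Mylk, the kinase that activates myosin by phosphorylating its light chain, read -0.42, -0.96 and -0.46, a mean of -0.61 ± 0.30 (adjusted p = 0.173). Of its further probes, one had a mean of -0.83 and the dimmest -0.0088. The light chain genes Myl6 and Myl9 had no unsaturated probe.

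Transcriptional regulators of the apparatus differed from each other in size. Myocd, the coactivator myocardin, read -0.14, -1.68 and -1.20 at its brighter probe, a mean of -1.01 ± 0.79 (limma adjusted p = 0.223), and had a mean of -0.37 at a dimmer one. Sample 1 was close to the pool and the other two were not. Srf, its DNA-binding partner, read -0.10, -0.30 and -0.02, a mean of -0.14 ± 0.15 (adjusted p = 0.422), and turned to 0.26 under median centring. The related coactivator genes Mrtfa and Mrtfb, which answer to free actin, had means of 0.13 and 0.28. Of 16 measured cofactors and repressors of serum response factor, 0 passed, 3 were lower and 1 was higher at an unadjusted p under 0.05, and the medians were -0.05, -0.20 and -0.07. Gata6, a factor of vascular smooth muscle, had the lowest unadjusted p of these, at -0.64 ± 0.25.

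Immediate early targets of serum response factor differed in direction. Of 12 measured, which include the member Srf, Ccn1, a matrix-associated growth regulator, was below 0 on all arrays and lowest in sample 3, at -1.49. It fell by 1.27 ± 0.25 on the log2 scale (adjusted p = 0.0381 in limma) and was the 1 that passed. Its relative Ccn2 read -1.01, -2.11 and -1.07, and Junb, a subunit of the AP-1 factor, 0.63, 0.44 and 0.50. The medians of the 12 were -0.12, -0.16 and -0.08. The Ccn1 call rests on a fit that includes saturated probes, and with these left out limma called 0 probes of the whole array.

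Intermediate filament genes were lowest in sample 3. Des, for desmin, the filament of all muscle types, read -0.49, -0.59 and -1.40, averaged over 10 spots on each array, a mean of -0.83 ± 0.50 (limma adjusted p = 0.188). Synm, whose product synemin joins desmin filaments, read -0.29, -0.17 and -0.39, and turned to 0.13 under median centring.

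Dense-body and actin-crosslinking genes followed the thin filament genes, with medians of -0.37, -1.13 and -0.75 over 9 genes, each below 0 on all arrays. Pdlim3, a PDZ and LIM protein that binds alpha-actinin, read -0.76, -1.94 and -1.15, a mean of -1.28 ± 0.60 (adjusted p = 0.155 in limma), and its second probe had a mean of -1.24. Flna, the crosslinker filamin A, read -0.66, -1.53 and -0.75 at its brightest unsaturated probe and had a mean of -0.08 at a dimmer one. Pdlim7 read -0.52, -1.25 and -0.61, and Csrp1, a LIM protein of smooth muscle, -0.34, -1.13 and -0.79. At each of these brightest probes sample 2 was the lowest. Of the further Pdlim7 probes, one had a mean of -0.85 and was also lowest in sample 2, while the dimmer ones had means of -0.33 and -0.41 and were lowest in sample 3.

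Fhl2, a LIM-only cofactor, had the most even values of the group. It read -0.59, -0.76 and -0.82, a mean of -0.72 ± 0.12, and its adjusted p of 0.0636 missed the threshold in limma. It passed with array weights (0.0248) and with median centring (0.0413). The alpha-actinin genes Actn1 and Actn4, which tie filaments into dense bodies, read -0.22, -0.95 and -0.52, and -0.35, -0.55 and -0.04. Actn4 turned to 0.17 under median centring.

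Synpo2 and Pdlim5, which encode Z-disc and dense-body proteins also made in striated muscle, had probes that ranked the samples differently. The brightest probe of Synpo2 read -0.36, -1.13 and -1.89, lowest in sample 3, while its other probes had means of -0.26 and -0.20. The brightest probe of Pdlim5 read -0.37, -0.60 and -0.26, lowest in sample 2. A pair of neighbouring Pdlim5 probes upstream of it read -0.37, -0.44 and -0.98, and -0.33, -0.46 and -1.44, both lowest in sample 3. A further Pdlim5 probe was above 0 on all arrays, with a mean of 0.15. The sequences of the 3 Pdlim5 probes that ranked the samples differently follow, with mm7 positions on the minus strand.

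Pdlim5 upstream probe, chr3:142197349-142197408: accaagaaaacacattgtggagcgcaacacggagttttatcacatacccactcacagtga
Pdlim5 next probe, chr3:142196292-142196351: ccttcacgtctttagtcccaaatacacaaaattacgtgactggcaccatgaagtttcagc
Pdlim5 brightest probe, chr3:142137847-142137906: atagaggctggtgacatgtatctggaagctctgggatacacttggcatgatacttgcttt

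The exons in which these probes lie were not analysed here.

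Adhesion-plaque genes had small ratios, with medians of -0.18, -0.23 and -0.24 over 6 genes, of which 3 were below 0 on every array and 2 were at an unadjusted p under 0.05. Vcl, for vinculin, which strengthens the link to actin, read -0.40, -0.70 and -0.37, a mean of -0.49 ± 0.18 (limma adjusted p = 0.158). Zyx, for the tension-sensing protein zyxin, read -0.26, -0.98 and -0.52. Ilk, the integrin-linked pseudokinase, read -0.12, -0.36 and -0.12, and Vasp, which extends actin filaments, -0.25, -0.10 and 0.07. Ilk and Vasp both turned to 0.26 under median centring.

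The remaining adhesion-plaque genes lay around 0. Tln1, for talin, which activates integrins, read 0.02, -0.10 and 0.10 at its brightest probe, and its further probes had means of -0.42 and -0.28. Parva, for the Ilk partner alpha-parvin, read 0.65, 0.26 and -0.43, so its samples lay on both sides of 0, and its second probe was lowest in sample 3 as well. The wider integrin adhesion list, 30 genes that are not members, had medians of -0.08, -0.19 and -0.20, with 13 lower and 2 higher at an unadjusted p under 0.05 and 0 called. The fibronectin receptor subunit genes Itga5 and Itgb1 had means of -0.78 and -0.54, and Evl, a relative of Vasp that blood cells also make, 0.84.

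Saturated probes were read apart, because a spot at the scanner's limit holds no measured level. Myl6 at 1 probe and Myl9 were at the limit in both dyes on all 3 arrays and gave the same ratios, -1.45, -1.43 and -1.49. Their raw signals were near 65223 in Cy5 for the Plk1(+/-) aortas and near 65203 in Cy3 for the pool, so the raw readings of both groups were nearly equal there and the negative ratios appeared with the normalization. Limma called 6 of the 8 saturated member probes lower (both of Myl6 and 1 each of Acta2, Flna, Myl9 and Tagln), against 30.9% of all saturated probes, and no fold is given for any of them.

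Cnn1, for smooth muscle calponin, was saturated in Cy5 on the array of sample 1 alone. Its raw signals were 65224, 31074 and 56629 in the Plk1(+/-) aortas, against 43805, 45900 and 32342 in the pool. The ratios on the unsaturated arrays of samples 2 and 3 were -1.98 and -0.68. On the array of sample 3 its raw Cy5 signal was above Cy3, as was the median over all spots that are not controls (337 against 155). The negative ratio there thus appeared with the normalization. Fhl1, a LIM-only protein of muscle, had raw signals at the Cy5 limit in all 3 Plk1(+/-) aortas, against 44422, 65105 and 48515 in the pool. Acta2, Flna and Tagln had unsaturated probes as well, and these were below 0 in every sample at the brightest of them.

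**Figure D2:**
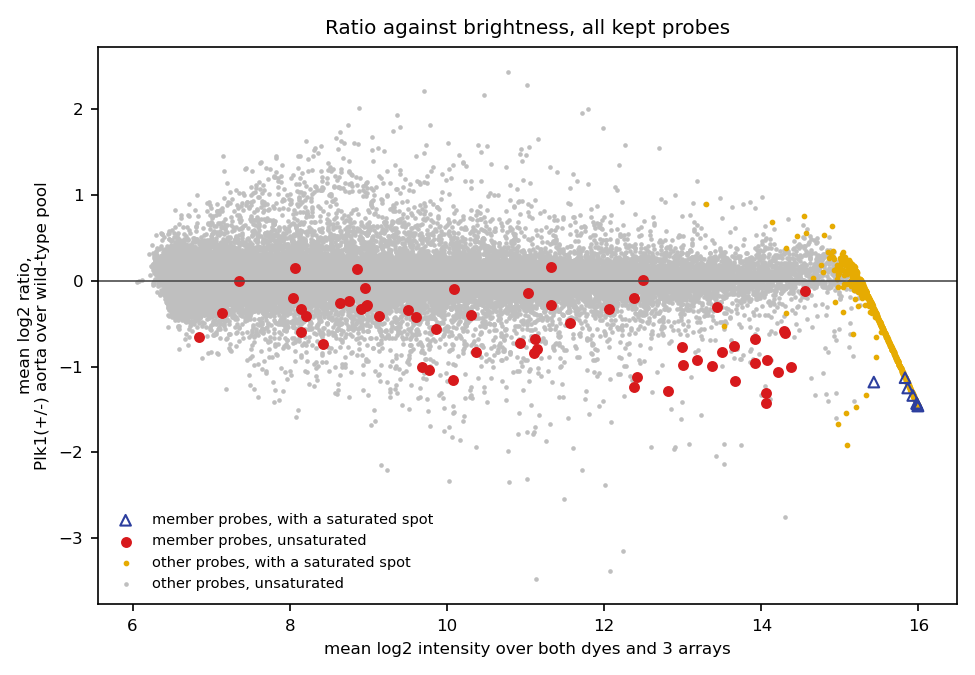
Mean log2 ratio of the Plk1(+/-) aorta over the wild-type pool (vertical axis) against mean log2 intensity over both dyes and 3 arrays (horizontal axis), for each of the 32497 kept probes. Most unsaturated member probes lie below 0, and the saturated ones lie at the end of a falling line that saturated probes of other genes share.

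The brighter member probes tended to have the more negative ratios. Spearman's rho of mean ratio with log2 intensity was -0.48 over the 58 unsaturated member probes and -0.072 over all 31901 unsaturated probes, a description over probes that share arrays and normalization. Among the 16 genes with several unsaturated probes, all probes were below 0 in 13. The samples labelled Plk1(+/-) also varied more than the pool measured beside them. The SD over arrays of the normalized log2 signal had a median of 0.343 in the Plk1(+/-) aortas and 0.104 in the repeated pool, and it was larger in the Plk1(+/-) aortas for 25 of the 31 genes. The pool was 1 RNA mixture read on each array, so its SD holds no variation between animals. The same count was not made over all probes, so the larger SD is not shown to be particular to the members.

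Members divided by the sample in which they were lowest. In 21 of 31 genes that was sample 2, with medians of -0.36, -1.16 and -0.66, against a share of 35.5% of all unsaturated probes. In 8 genes it was sample 3 (Des, Fhl2, Parva, Smtn, Synm, Synpo2, Tpm1 and Tpm4), against 31.9%, and in 2 it was sample 1 (Cnn2 and Vasp), against 32.5%. In 6 of the 16 genes with several probes, the probes named different samples as the lowest (Pdlim5, Pdlim7, Synpo2, Tpm1, Vasp and Vcl).

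Markers of skeletal and cardiac muscle were lowest in sample 3. Their medians were -0.82, -0.91 and -2.99 over 24 measured genes of 25, with 18 below 0 on all arrays, 0 called in limma (17 at an unadjusted p under 0.05), 0 not above background, and 22 of 24 lowest in sample 3. Acta1, the skeletal actin, read -0.67, -0.96 and -2.29, and Actn2, the striated alpha-actinin, -1.08, -1.17 and -3.02. Some cardiac markers of the list were above 0 in sample 2 and far below it in the others. Myl7, an atrial light chain, read -4.06, 0.54 and -4.10, and Tnnt2, cardiac troponin T, -2.73, 0.15 and -3.22. Myh6, Myl4 and Tnni3 shared this pattern, while Actc1, Myh7, Myl2 and Myl3 were below 0 on all arrays. Actc1, the cardiac actin, read -0.29, -1.53 and -0.76. Both junction probes of Tpm1, the brightest Synpo2 probe, Des and 2 Pdlim5 probes were lowest in sample 3, like 22 of the 24 markers. Smtn, Fhl2, Synm, Parva and Tpm4 were also lowest in sample 3, while Myh11, Acta2, Tagln, Lmod1 and Actg2 were lowest in sample 2. Samples 2 and 3 lay close together in Smtn (-0.47 and -0.48), Fhl2 (-0.76 and -0.82) and Tpm4 (-0.11 and -0.16). The part of striated muscle RNA in these ratios was not tested.

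**Figure D3:**
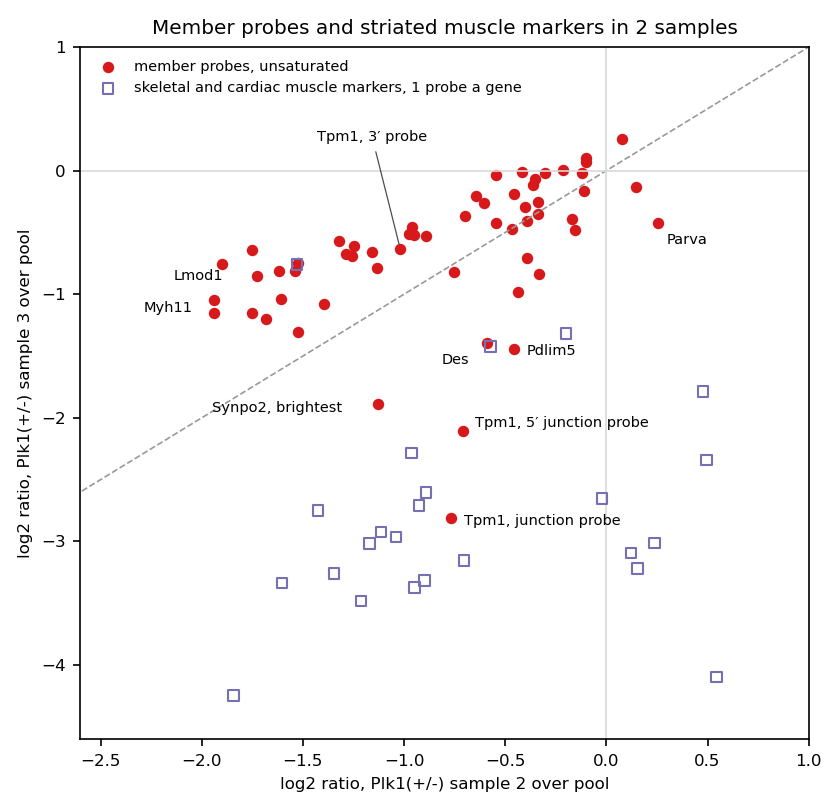
Log2 ratio over the wild-type pool in Plk1(+/-) sample 3 (vertical axis) against sample 2 (horizontal axis) for the 58 unsaturated member probes (filled circles) and 24 skeletal and cardiac muscle markers (open squares), with a dashed line where both are equal. Most member probes lie above the line, lower in sample 2, while both junction probes of Tpm1, the brightest Synpo2 probe and Des lie below it with the striated muscle markers.

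Markers of other cell types also had ratios away from 0. Lymphocyte markers had medians of 0.17, 1.53 and 1.84 over 15 genes, 13 of them above 0 on all arrays. The lymphocyte median was farthest from 0 in sample 3 and the member median in sample 2. Both were nearest to 0 in sample 1. Red cell markers had medians of -0.50, -1.19 and -0.91 over 4 genes, adventitial fibroblast markers -0.22, -0.42 and -0.30 over 14, endothelial markers 0.08, -0.02 and -0.18 over 15, macrophage markers -0.06, 0.03 and 0.21 over 13, and Schwann cell and neuron markers 1.39, 0.54 and -0.23 over 13. Of 12 fat markers 8 were only saturated, and the other 4 had medians of -0.14, 0.32 and -0.22. No gene of these lists was below background, and 1 was called in limma, Slc4a1 of the red cell list (adjusted p = 0.0105, lower). The part of cell makeup in the member ratios was not tested.

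Genes near to the members in function were read beside them. The 34 other smooth muscle genes had medians of -0.22, -0.46 and -0.48, with 21 below 0 on all arrays. At an unadjusted p under 0.05, 19 were lower and 1 was higher, and 0 were called. Sample 2 was the lowest in 21 of the 34 and sample 3 in 11. The latter include Mylk2, Casq2 and Ldb3, which striated muscle makes too. Jph2, a junctophilin that holds calcium stores near the membrane, read -0.64, -1.54 and -0.96. A list of actin and myosin relatives, 19 measured, had medians of -0.15, -0.26 and -0.46, with 0 called, 7 lower and 2 higher at an unadjusted p under 0.05. That list holds the member Cald1 and the striated muscle genes Actn2, Actn3, Flnc, Lmod2 and Lmod3 beside nonmuscle genes. The nonmuscle heavy chains differed, at 0.17, 0.27 and 0.39 for Myh9 and -0.34, -1.01 and -0.46 for Myh10. Actb, the beta actin, read 0.02, -0.39 and 0.24, on both sides of 0. No difference between these lists and the members was tested.

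The member median stayed below that of all probes under each of the processing alternatives tried. It lay between -0.79 and -0.27, and the weakest value came from median centring, which shifted the median of all probes to 0.18 and left 22 of 31 genes below 0 and 25 below the shifted median. Without sample 2 the member median was -0.44, against -0.68 with all samples.

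**Figure D4:**
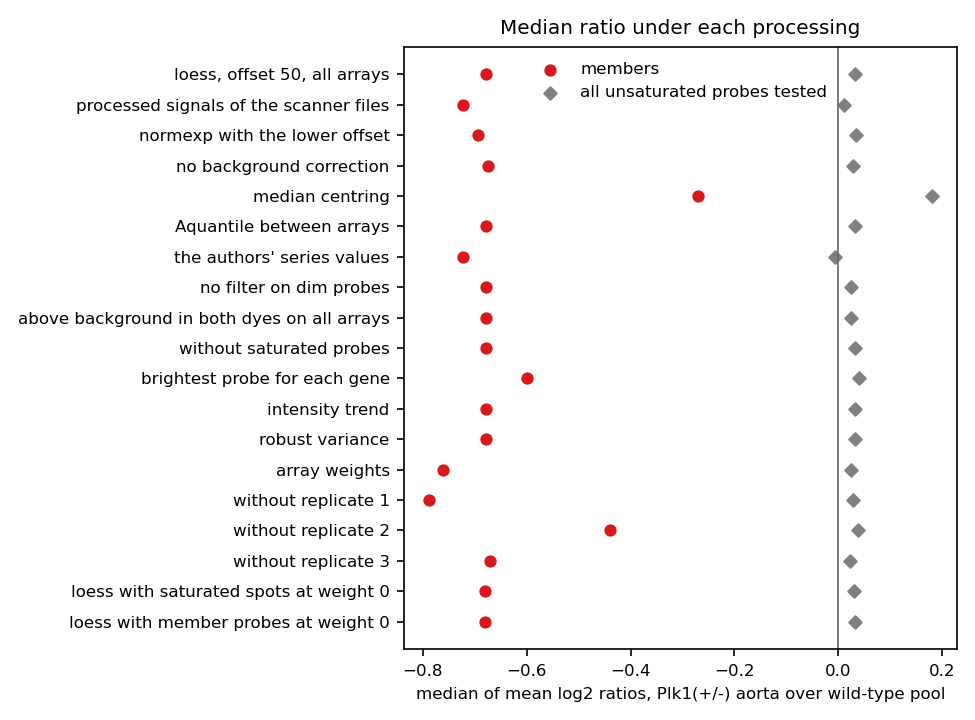
Median over the measured members (circles) and over all unsaturated probes tested (diamonds) of the mean log2 ratio of the Plk1(+/-) aorta over the wild-type pool (horizontal axis), under each way of processing the arrays (vertical axis). The member median lies left of the median of all probes in each row, and the gap is narrowest without sample 2 and with median centring.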

How the data were processed

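Per the file headers, Agilent Feature Extraction 9.5.3.1 made the intensity values of the deposited files, from which mean signals, not yet background-corrected or normalized, were taken. The deposited log10 ratios are processed Cy5 over processed Cy3, per the file headers. The authors' deposited series values are log2 ratios, used as an alternative, with slopes of 0.997, 0.999 and 0.998 against the scanner files' ratios, while their centring step is not given in the sources used here. In limma 3.58.1 (R 4.3.3, package data.table, version 1.17.8), mean signals were corrected with normexp (offset 50, median local background) and loess-normalized within arrays with control spots at weight 0. Control spots and outlier spots (136, 109 and 100 of 43379) were left out and spots of 1 probe averaged. A probe stayed, as 32497 did, where either dye was well above background on 2 or more arrays. Well above background were 80.3%, 77.0% and 80.8% of spots in Cy5 and 66.0%, 69.0% and 68.0% in Cy3, and precision is limited by the number of arrays.

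Each probe's ratio was tested against 0 (lmFit and eBayes, two-sided, Benjamini-Hochberg over all kept probes), which called 215, 205 of them lower, or 0.662%. A member's brightest unsaturated probe stood for it. All members were named. Further genes were up to 3 of lowest unadjusted p in each of 13 context lists, besides Actb, Myh9, Myh10, Mrtfa and Mrtfb. Some striated muscle genes were named outside this rule, for their pattern or to show what a list holds. Members and lists were chosen with earlier results of these data known. Gene names were updated through RefSeq accessions for 22951 probes, and 3109 matched a synonym. The fit was tested on simulated data. Samples are called biological replicates in the labels. Alternatives changed the background correction, normalization, filter, saturated probes, variance model and samples.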

Additional observations from a re-analysis of the deposited data

How the results depend on the processing

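Calls depended on the normalization, on saturated probes and on samples 2 and 3. Over all kept probes, limma called 215, and 100 with the scanner's processed signals, 142 with a normexp offset of 16, 554 with array weights, 13609 with median centring and 0 without saturated probes (lowest adjusted p 0.177, 5698 at an unadjusted p under 0.05). Of the median-centred calls 68.5% were higher, against 4.65% with loess. Leaving out 1 sample gave 0 to 293 calls over all probes, 0 to 7 among member probes and 0 to 1 among unsaturated ones. The counts were 0 without sample 2 and without sample 3 (2818 and 4642 at an unadjusted p under 0.05), and the 1 unsaturated member probe called without sample 1 was a Cald1 probe. Called member probes numbered 6, and 14 with median centring, 11 with array weights and 0 without saturated probes. Of these, 7 and 4 were unsaturated with median centring and with array weights, and the member median was -0.27 with median centring.

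Mean ratios that changed sign were, with median centring, Actn4 (0.17), Cnn2 (0.12), Ilk (0.26), Srf (0.26), Synm (0.13), Tpm4 (0.38) and Vasp (0.26). Tln1 turned to -0.0083 with the processed signals and with the authors' series values, -0.041 with array weights and -0.043 without sample 3 (-0.043 to 0.060 on leaving out 1 sample), and Parva to -0.086 without sample 1 (-0.086 to 0.45). The causes were not tested. For single genes under alternatives, 540 results kept their direction and their side of the threshold, 12 changed sign and 3 newly passed with the same sign (Fhl2 with array weights and with median centring, and Tln1 with median centring, at 0.47), while Tpm4 passed with the opposite sign. Setting saturated spots or member probes at weight 0 in the loess, both chosen after seeing the data, left the member median at -0.68. No paired analysis was possible because each array holds a single Plk1(+/-) sample against the same pool. Saturation leaves Cnn1, Fhl1, Myl6 and Myl9 without a measured fold.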
